A study of Homo sapiens with 8 samples.

Results

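MYCL knockdown in NCI-H660 cells was described across the genome. NCI-H660 is an established cell line of neuroendocrine prostate cancer (NEPC) that grows without androgen. The comparison used 4 of the 8 libraries of the series, 2 from cells given shRNA against MYCL (shMYCL) and 2 from cells given a non-targeting shRNA (shCtrl). Its members were the 16980 genes of 78691 in the count table that passed a filter on low counts in these 4 libraries. Both groups therefore carried a viral vector and differed in the hairpin it encoded. The sources differ on the vector. The design text names an adenoviral vector, the sample labels speak of stable knockdown, and the methods describe an adenoviral vector with several miR30-based MYCL hairpins behind a CMV promoter for transient knockdown and a lentiviral hairpin for stable knockdown. The libraries were made from poly(A)-selected RNA and labelled as replicates.

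MYCL encodes L-MYC, a basic helix-loop-helix protein of the MYC family. MYC proteins bind DNA as dimers with MAX at E-boxes, and MXD proteins compete with them for MAX. In neuroendocrine cancers L-MYC is known for its high expression. The question behind the knockdown was whether neuroendocrine gene programs depend on MYCL.

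The libraries held 16998872 and 18362946 counts (shCtrl) and 15177058 and 15832230 counts (shMYCL), and mitochondrial genes took between 3.50% and 3.83% of them. The 8 genes chosen to define neuroendocrine cells were all expressed, and together they held 1979 and 1949 CPM (counts scaled to a common library size) in shCtrl and 1477 and 1570.2 CPM in shMYCL. The 10 prostate adenocarcinoma genes held 23.9 to 33.5 CPM, and KLK2, KLK3 and FOLH1 among them had 0 counts in all 4 libraries. Of 14 leukocyte and endothelial markers, with 5.75 to 10.3 CPM, CD3D, CD3E, MS4A1 and TIE1 were also at 0. The Pearson correlation of log2 CPM was at least 0.983 between replicates and at most 0.965 between groups. A gene counted as called when its adjusted p in edgeR's quasi-likelihood test was under 0.05 and its log2 fold change was 0.5 or more in size. By that rule 2745 of the 16980 genes (16.2%) were called, of which 1219 (7.18% of those tested) were higher and 1526 (8.99%) were lower after knockdown. The counts of each gene list below are to be read against these shares. The shMYCL libraries lay above both shCtrl libraries for 1217 called genes and below both for 1525, and they overlapped for 3. The libraries of the groups did not overlap for 10720 of the 16980 tested genes, called or not, so that a lack of overlap alone was the common case. Of the 1022 called genes with a log2 fold change of 1 or more in size 408 were higher and 614 lower. In bulk RNA, less RNA per cell and fewer cells that hold it cannot be told apart.

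**Figure D1:**
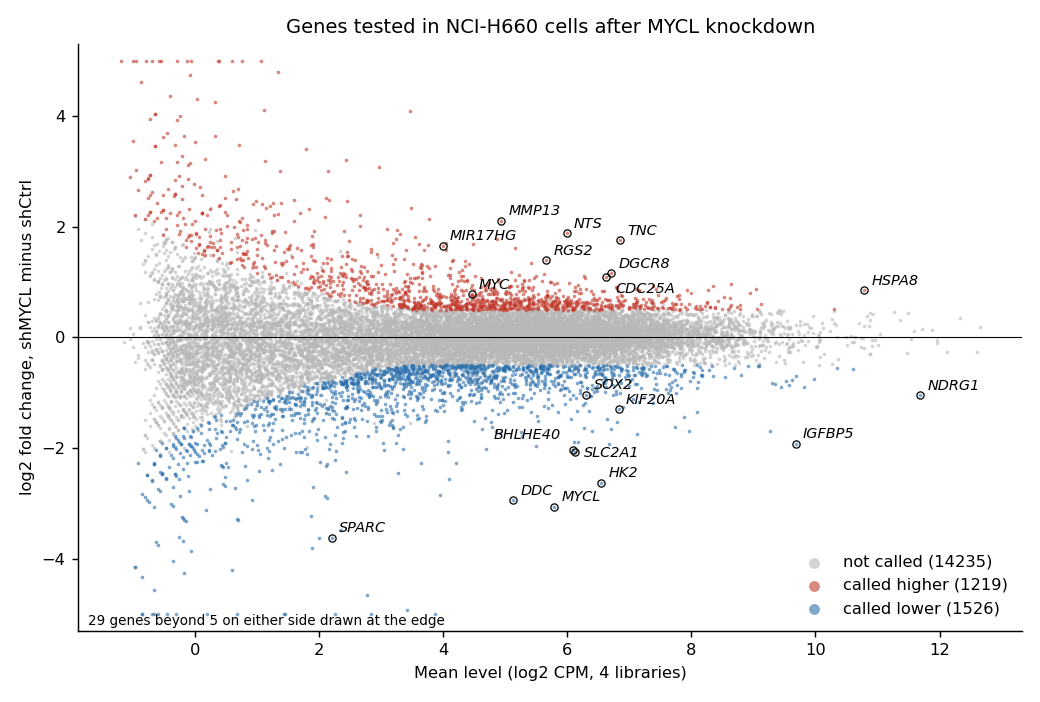
Log2 fold change of each of the 16980 tested genes (vertical axis, shMYCL minus shCtrl) against its mean level (horizontal axis, log2 CPM), with called genes in red (1219 higher) and blue (1526 lower). MYCL, DDC and HK2 are among the labelled genes far below 0, and TNC, NTS and MMP13 among those far above it.

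MYCL itself was measured at 109.9 and 86.7 CPM in the shCtrl libraries and 10.9 and 12.6 CPM in the shMYCL libraries. Both shMYCL libraries were far below both controls, and the fold change was 8.35-fold down (log2 fold change -3.06 ± 0.15 SE, adjusted p = 4.29e-09). MYCL lies at chr1:39895428-39902256 (hg38). MYC, the ubiquitous member of the family, was measured at 13.8 and 18.4 CPM in the shCtrl libraries and 30.6 and 24.98 CPM in the shMYCL libraries. It was higher in both shMYCL libraries than in either control, with a log2 fold change of 0.78 ± 0.16 SE, adjusted p = 0.00198. In TPM, which is scaled by gene length and so can be compared between genes, MYCL averaged 56.2 in controls and 6.59 after knockdown, and MYC averaged 12.7 and 22.0, so that MYC had the higher level after knockdown. MYCN stayed low, at 1.42 and 2.87 CPM in the shCtrl libraries and 1.58 and 2.30 CPM in the shMYCL libraries, and its libraries overlapped. Of the 15 network genes tested, 3 were called lower and 1 higher. Besides MYCL these were MXI1 (log2 fold change -1.35 ± 0.11 SE, adjusted p = 9.54e-07) and MXD3 (-1.41 ± 0.18 SE, adjusted p = 5.83e-05), which encode antagonists of MYC at MAX, while MAX was not called (-0.01). Of the exonic bases of MXD3, 24.2% are shared with PRELID1 on the other strand, so that its value is uncertain.

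Of 30 neuroendocrine transcription factors 21 could be tested. Among them 10 (47.6%, against 8.99% of all genes) were called lower and 2 (9.52%, against 7.18%) higher, with a median log2 fold change of -0.38 against -0.003 over all genes. SOX2, a factor of neural progenitors, was at 108 and 104 CPM in the shCtrl libraries and 49.4 and 54.2 CPM in the shMYCL libraries. It was 2.05-fold lower (-1.04 ± 0.11 SE, adjusted p = 8.71e-06), with no overlap between groups. INSM1, the zinc finger factor of endocrine differentiation, was at 57.7 and 58.5 CPM in the shCtrl libraries and 35.6 and 38.6 CPM in the shMYCL libraries and fell less (-0.65 ± 0.11 SE, adjusted p = 0.000772). NEUROG3, the endocrine progenitor factor, was at 7.14 and 4.27 CPM in the shCtrl libraries and 1.38 and 1.98 CPM in the shMYCL libraries and fell most among the list's lower genes (-1.75 ± 0.34 SE, adjusted p = 0.00156). SOX9 (-1.31), POU3F2, a neural POU factor (-0.88), SOX4 (-0.74) and PROX1 (-0.51) were also lower in both shMYCL libraries, and the last of these was not called without shCtrl replicate 1 (-0.34) or without shMYCL replicate 2 (-0.43). LHX2 (1.23 ± 0.32 SE, adjusted p = 0.0101) and PAX6 (3.94 ± 0.90 SE, adjusted p = 0.00498) were the 2 factors called higher. PAX6 had 0 and 2 counts in controls and 12 and 18 counts after knockdown, and 25.4% of its exonic bases are shared with ELP4 on the other strand. It was not called without shCtrl replicate 1 (3.08), nor was LHX2 without shMYCL replicate 1 (0.95). With 1 library left out at a time between 7 and 10 of the list were called lower. The number called higher was 1 without shCtrl replicate 1 or without either shMYCL replicate.

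**Figure D2:**
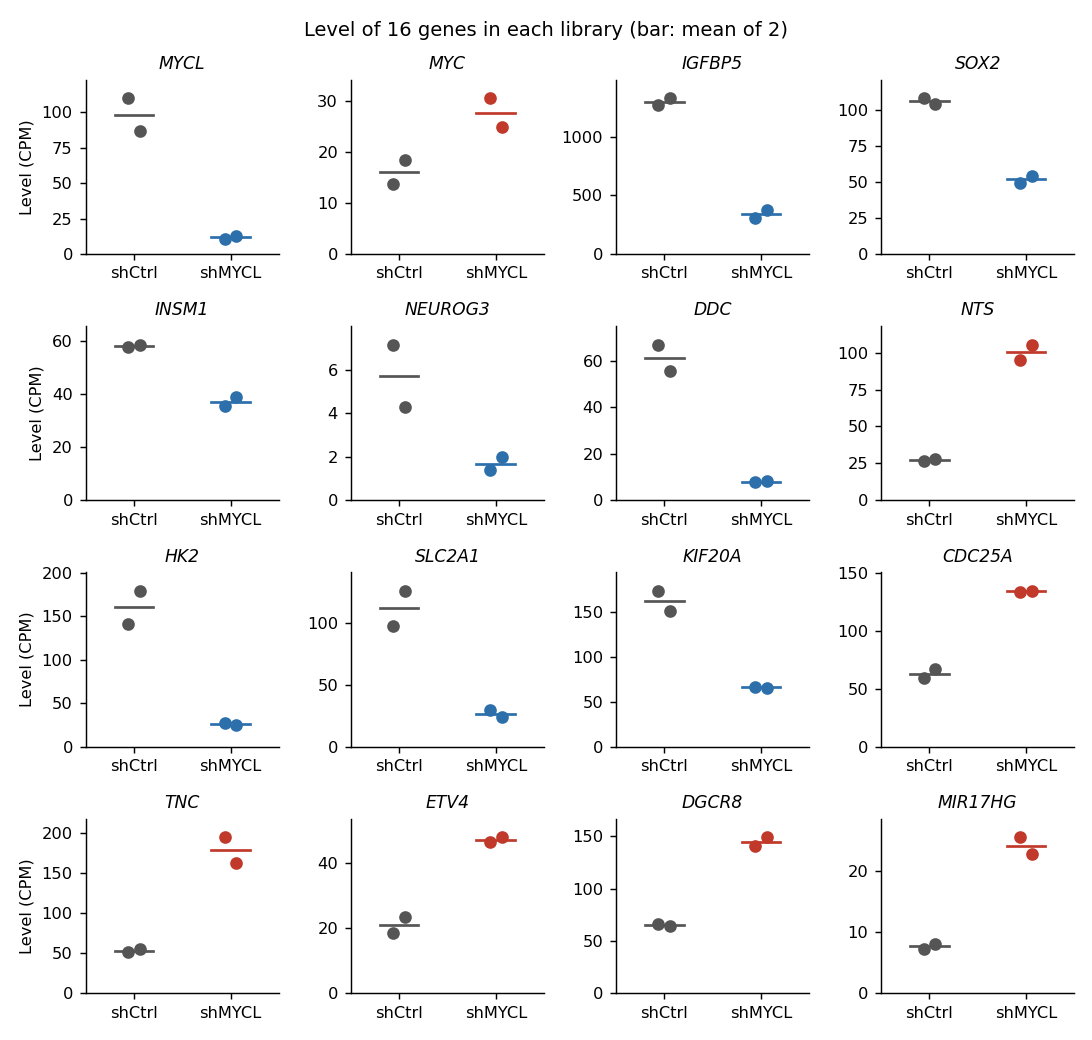
Level of 16 genes in each of the 4 libraries (CPM, linear axes from 0, a dot for each library and a bar for the mean of 2). In each panel the shMYCL dots lie wholly above (red) or wholly below (blue) the grey shCtrl dots, as for SOX2 with 49.4 and 54.2 CPM against 108 and 104 CPM.

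Of 25 secretory granule and peptide hormone genes 3 were called higher and 1 lower, with a median of 0.01. The chromogranin genes CHGA (130.4 and 137 CPM in the shCtrl libraries and 119 and 129.7 CPM in the shMYCL libraries) and CHGB (0.44, or 0.60 and called without shMYCL replicate 1), the granin SCG2 (0.01) and the neuronal enolase ENO2 (-0.10) were not called. NTS, which encodes the peptide neurotensin, was at 26.7 and 27.7 CPM in the shCtrl libraries and 95.4 and 105 CPM in the shMYCL libraries, a rise of 3.69-fold (1.89 ± 0.11 SE, adjusted p = 4.47e-08). VGF, a granule neuropeptide precursor, rose 1.98-fold (0.99), and GAL, the galanin precursor, rose from 7 and 12 counts to 36 and 31, but was not called without shCtrl replicate 1 (1.74) or shMYCL replicate 1 (1.89). The gene called lower was DDC, the aromatic amino acid decarboxylase that makes dopamine and serotonin. It was at 67.0 and 55.5 CPM in the shCtrl libraries and 7.70 and 8.24 CPM in the shMYCL libraries, a drop of 7.67-fold (-2.94 ± 0.15 SE, adjusted p = 4.29e-09). Among 29 synaptic vesicle genes 4 were called higher and 4 lower. They included CPLX1, a complexin that clamps vesicle fusion (1.29 ± 0.15 SE, adjusted p = 2.97e-05), and RAB3A, a vesicle GTPase (-1.79 ± 0.28 SE, adjusted p = 0.000264). The number of higher synaptic genes was 2 without shMYCL replicate 1. A pair of surface proteins of therapeutic interest, the Notch ligand DLL3 and the adhesion molecule NCAM1, did not pass both thresholds. DLL3 was at 24.3 and 26.8 CPM in the shCtrl libraries and 17.5 and 18.7 CPM in the shMYCL libraries, lower in both shMYCL libraries, and missed the limit on the fold change by a small margin (-0.50 ± 0.13 SE, adjusted p = 0.0122), which it passed without shCtrl replicate 1 (-0.56). NCAM1 was at 157 and 159 CPM in the shCtrl libraries and 134 and 138 CPM in the shMYCL libraries (-0.22 ± 0.10 SE, adjusted p = 0.13).

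In the Notch pathway, which opposes neuroendocrine differentiation, 5 of 26 tested genes were called lower (19.2%, against 8.99% of all genes). The number called higher was 1 (3.85%, against 7.18%). With 1 library left out the median log2 fold change of the list lay between -0.14 and 0.06. The effector HES1 was at 34.3 and 33.8 CPM in the shCtrl libraries and 20.5 and 19.6 CPM in the shMYCL libraries and fell (-0.76 ± 0.12 SE, adjusted p = 0.000422), whereas the related HEY1 was at 10.9 and 12.4 CPM in the shCtrl libraries and 19.02 and 19.7 CPM in the shMYCL libraries and rose (0.74 ± 0.15 SE, adjusted p = 0.00211). The 2 effectors therefore moved in opposite directions. Of 61 axon guidance genes 11 were called higher (18%, against 7.18%) and 9 lower (14.8%, against 8.99%). The ephrins EFNA1 (-1.61) and EFNA3 (-1.20) were among the lower and EFNA2 (1.90) among the higher. The 9 lower became 5 without shMYCL replicate 2. Ion channels of excitable cells were called higher in 6 of 44 tested (13.6%, against 7.18% of all genes) and lower in 0. The higher ones were led by the calcium-activated potassium channel KCNMA1 (1.95 ± 0.19 SE, adjusted p = 4.34e-06). DESeq2 called 3 of these 44 channels higher, a share near that of all genes it called higher (983 of 16980).

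Of the 52 gene lists examined, hypoxia-inducible genes had the largest share of called members. Cells short of oxygen stabilise the factors HIF1A and EPAS1, which raise glucose uptake, glycolysis and blood vessel growth factors. Of 55 tested genes of this list 38 (69.1%, against 8.99% of all genes) were called lower and 0 higher, and the median log2 fold change was -1.04. At an unadjusted p under 0.05 in edgeR 44 were lower and 3 higher, and DESeq2 called 37 lower and 0 higher. Of 13737 protein-coding genes 2542 were lower and 2793 higher at that unadjusted threshold. HK2, the hexokinase that traps glucose, was at 141 and 179 CPM in the shCtrl libraries and 26.7 and 25.3 CPM in the shMYCL libraries, or 6.17-fold lower (-2.63 ± 0.13 SE, adjusted p = 4.29e-09). SLC2A1, the glucose transporter GLUT1, was at 97.7 and 126 CPM in the shCtrl libraries and 29.3 and 24.0 CPM in the shMYCL libraries (-2.07 ± 0.14 SE, adjusted p = 1.02e-07). BHLHE40, a repressor induced by low oxygen and part of the circadian clock, was at 90.7 and 128 CPM in the shCtrl libraries and 26.3 and 27.0 CPM in the shMYCL libraries (-2.04 ± 0.15 SE, adjusted p = 1.82e-07). In these 3 genes both shMYCL libraries lay far below both controls, and the shMYCL libraries lay closer to each other than the controls did. NDRG1, a stress-induced gene, was among the most abundant in the cell at 3795 and 5116 CPM in the shCtrl libraries and 1968 and 2358 CPM in the shMYCL libraries (-1.04 ± 0.14 SE, adjusted p = 7.02e-05). VEGFA, the vascular growth factor, was at 306 and 396 CPM in the shCtrl libraries and 193 and 208 CPM in the shMYCL libraries (-0.81 ± 0.12 SE, adjusted p = 0.00024). Both were lower in both shMYCL libraries, with a smaller change. ANKRD37 had the steepest drop (-3.63 ± 0.36 SE, adjusted p = 4.85e-06), from 105 and 140 counts to 10 and 7, but 40.3% of its exonic bases are shared with UFSP2 on the other strand. The adenylate kinase AK4 (-1.89), the hormone gene STC2 (-1.74) and the mTORC1 inhibitor DDIT4 (-1.54) fell as well. The transcripts of the factors themselves were not called, with 0.30 for HIF1A and 0.42 for EPAS1 on the log2 scale.

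The fall was not uniform within the list. LDHA (-0.48 ± 0.11 SE, adjusted p = 0.00469), PGK1 (-0.30 ± 0.12 SE, adjusted p = 0.0772) and PDK1 (-0.25 ± 0.11 SE, adjusted p = 0.113) were not called, although LDHA was without shCtrl replicate 1 (-0.53) or without shMYCL replicate 2 (-0.58). CA9 was hardly expressed, with 8 and 10 counts in controls and 13 and 18 counts after knockdown. The controls differed from each other on this list more than over all genes. The level in shCtrl replicate 2 exceeded that in shCtrl replicate 1 for 46 of the 55 genes, with a median log2 difference of 0.27 against 0.00 over all genes. Such a difference was also found for the lists of the integrated stress response (0.31), glycolysis (0.24) and replication-dependent histones (0.22). The summed level of the list was 15901 and 19337 CPM in the controls and 11138 and 12500.4 CPM after knockdown. Without shCtrl replicate 2 the list still had 37 genes called lower, with a median of -0.90, and 2 called higher. The part of this spread between the controls in the result was not tested. For a single gene the exact permutation p of 2 against 2 libraries has 0.33 as its lowest value, and the adjusted p of edgeR borrows its spread from all genes.

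**Figure D3:**
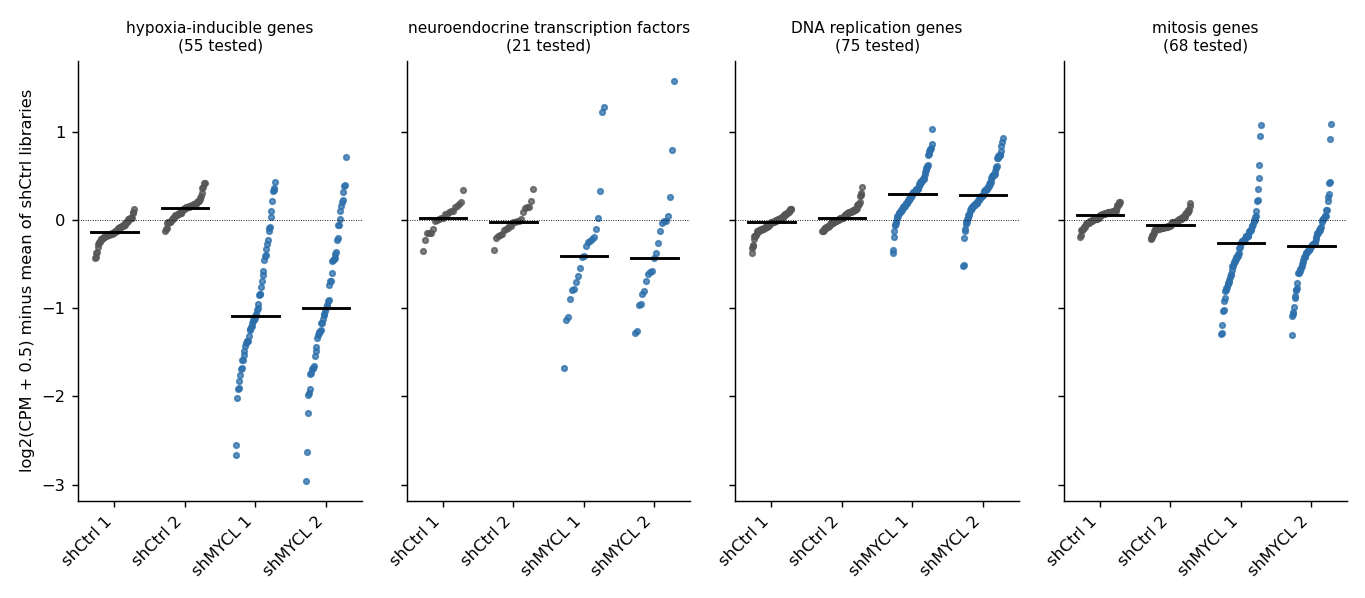
Level of each tested member of 4 lists in each library, as log2(CPM + 0.5) minus the mean of the shCtrl libraries, with a dot for each gene (sorted within a library) and a bar for the median. Most of the 55 hypoxia-inducible genes lie below 0 in both shMYCL libraries, 75 DNA replication genes shift upwards and 68 mitosis genes downwards, and shCtrl 2 lies above shCtrl 1 for the hypoxia list.

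Promoters of these genes are shown because hypoxia-inducible factors and MYC proteins read related letters. Hypoxia-inducible factors bind the core ACGTG, and MYC proteins bind the E-box CACGTG, which holds that core. Promoters of 300 bases (250 before to 50 after the start, RefSeq, GRCh38.p14) were matched by symbol for 11985 tested genes and searched on both strands. ACGTG occurred in 26.2% of them, in 25% of the 1028 called lower and in 24% of the 861 called higher. CACGTG occurred in 9.88% of all, in 8.95% of those called lower and in 9.87% of those called higher. Of 46 matched hypoxia-inducible genes 27 (58.7%) held ACGTG and 12 (26.1%) held CACGTG. The 250 bases before the start are printed 5′ to 3′ for 4 called hypoxia-inducible genes that hold ACGTG there. The plus strand is shown, which is the strand of each of these 4 genes. They are examples with a large fall and not a ranking of the whole list. Capitals mark ACGTG or its reverse complement CACGT.
ANKRD37, chr4:185396591-185396840: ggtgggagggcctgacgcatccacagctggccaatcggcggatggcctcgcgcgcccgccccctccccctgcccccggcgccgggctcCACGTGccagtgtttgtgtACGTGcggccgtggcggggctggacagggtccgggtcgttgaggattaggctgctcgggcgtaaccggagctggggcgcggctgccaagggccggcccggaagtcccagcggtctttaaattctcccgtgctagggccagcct
HK2, chr2:74833877-74834126: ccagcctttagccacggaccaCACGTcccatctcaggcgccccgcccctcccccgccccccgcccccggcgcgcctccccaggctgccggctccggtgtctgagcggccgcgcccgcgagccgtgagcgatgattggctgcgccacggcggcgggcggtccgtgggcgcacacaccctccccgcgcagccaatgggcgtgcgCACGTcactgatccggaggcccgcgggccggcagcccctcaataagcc
BHLHE40, chr3:4979187-4979436: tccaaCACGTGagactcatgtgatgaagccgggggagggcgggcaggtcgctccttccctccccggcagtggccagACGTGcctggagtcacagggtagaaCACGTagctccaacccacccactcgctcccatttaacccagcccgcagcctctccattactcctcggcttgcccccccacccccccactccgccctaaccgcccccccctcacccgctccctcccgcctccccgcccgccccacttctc
AK4, chr1:65147302-65147551: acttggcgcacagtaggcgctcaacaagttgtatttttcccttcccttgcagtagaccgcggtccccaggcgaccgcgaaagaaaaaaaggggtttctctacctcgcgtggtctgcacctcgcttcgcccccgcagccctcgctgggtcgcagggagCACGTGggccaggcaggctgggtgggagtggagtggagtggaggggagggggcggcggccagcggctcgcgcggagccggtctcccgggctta
The capitals mark 2 stretches in ANKRD37 and HK2, 3 in BHLHE40 and 1 in AK4. In ANKRD37, BHLHE40 and AK4, 1 of the stretches is a whole E-box. A match describes the letters of the window and not binding.

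In glycolysis 7 of 32 tested genes were called lower (21.9%, against 8.99% of all genes) and 3 higher (9.38%, against 7.18%), with a median of -0.11. The summed level of the list overlapped between groups, at 13076 and 15598 CPM in the controls and 12740 and 13737 CPM after knockdown. The abundant enzyme ENO1 was not called (0.11). The 7 lower genes included HK2 and SLC2A1, which were counted in the hypoxia list as well. The regulatory enzymes PFKFB3 (-1.65 ± 0.12 SE, adjusted p = 1.62e-07) and PFKFB4 (-1.69 ± 0.13 SE, adjusted p = 4.23e-07) were also among the 7. PDK4, a mitochondrial kinase that inhibits pyruvate dehydrogenase, was at 7.08 and 5.95 CPM in the shCtrl libraries and 20.4 and 20.9 CPM in the shMYCL libraries and rose 3.17-fold (1.66 ± 0.16 SE, adjusted p = 4.82e-06). The number of higher glycolysis genes was 1 without shCtrl replicate 1. Endoplasmic reticulum chaperones and unfolded protein response genes were called lower in 15 of 43 (34.9%, against 8.99% of all genes), with a median of -0.36. At an unadjusted p under 0.05 in edgeR 23 were lower and 2 higher, against 2542 and 2793 of 13737 protein-coding genes. HSPA5, the chaperone BiP, was at 946 and 1087 CPM in the shCtrl libraries and 586 and 664 CPM in the shMYCL libraries (-0.70 ± 0.11 SE, adjusted p = 0.000369). HSP90B1, its partner GRP94, was at 1863 and 1869.5 CPM in the shCtrl libraries and 1148 and 1374 CPM in the shMYCL libraries (-0.57 ± 0.11 SE, adjusted p = 0.00188). The groups did not overlap for either gene, although HSP90B1 was not called without shMYCL replicate 1 (-0.43). HERPUD1, of the degradation pathway of this compartment, fell further (-1.09 ± 0.13 SE, adjusted p = 3.7e-05). The integrated stress response, driven by ATF4, had 8 of 43 called lower, but a median of -0.03, and neither ATF4 (0.27) nor ASNS (-0.002) was called. Of 30 heat shock protein genes 3 were called higher (10%, against 7.18% of all genes). HSPA8, the constitutive HSP70, was at 1325 and 1192 CPM in the shCtrl libraries and 2187 and 2347 CPM in the shMYCL libraries (0.85 ± 0.11 SE, adjusted p = 5.35e-05), and 5 heat shock genes were called higher without shCtrl replicate 2 or without shMYCL replicate 1.

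DNA replication genes were called higher in 16 of 75 (21.3%, against 7.18% of all genes), with a median of 0.30. At an unadjusted p under 0.05 in edgeR 42 were higher and 2 lower, against 2793 and 2542 of 13737 protein-coding genes. ORC1, of the origin recognition complex, was at 47.0 and 51.7 CPM in the shCtrl libraries and 101 and 88.9 CPM in the shMYCL libraries (0.94 ± 0.11 SE, adjusted p = 3.12e-05). CLSPN, a replication checkpoint adaptor, was at 224 and 215 CPM in the shCtrl libraries and 372 and 420.1 CPM in the shMYCL libraries (0.85 ± 0.11 SE, adjusted p = 4.78e-05). Both rose in both shMYCL libraries, and so did the licensing factor CDT1 (0.80) and the S phase factor E2F8 (0.84), whereas the most abundant members ATAD2 (0.48 ± 0.11 SE, adjusted p = 0.00411), MCM4 (0.21) and CCNE2 (0.48 ± 0.10 SE, adjusted p = 0.00296) were not called, the first and last by a small margin on the fold change. ATAD2 and CCNE2 were called without shCtrl replicate 1 (0.58 and 0.51) or shMYCL replicate 1 (0.51 and 0.52), and CCNE2 shares 37% of its exonic bases with INTS8 on the other strand. PCNA (0.21) and MCM2 (0.14) were not called either. Mitosis genes showed the reverse, with 19 of 68 called lower (27.9%, against 8.99% of all genes) and 3 higher and a median of -0.28. KIF20A, a kinesin of cytokinesis, was at 173 and 150.2 CPM in the shCtrl libraries and 66.3 and 65.2 CPM in the shMYCL libraries (-1.30 ± 0.11 SE, adjusted p = 1.24e-06). CCNB1, the cyclin of mitotic entry, was at 189.8 and 177 CPM in the shCtrl libraries and 80.1 and 88.7 CPM in the shMYCL libraries (-1.12 ± 0.11 SE, adjusted p = 4.2e-06). HMMR, a spindle protein (-1.18), the kinase gene PLK1 (-0.91) and CDC20 (-0.78) fell as well, while TOP2A (-0.30 ± 0.11 SE, adjusted p = 0.0536) and MKI67 (-0.16 ± 0.12 SE, adjusted p = 0.358) were not called. CDC25A, a phosphatase of S phase entry, was at 58.9 and 67.5 CPM in the shCtrl libraries and 134 and 134 CPM in the shMYCL libraries and rose (1.09 ± 0.11 SE, adjusted p = 5.96e-06), and MYBL2 rose with it (0.93). Leaving out each library in turn gave 15 to 21 replication genes called higher and 17 to 25 mitosis genes called lower.

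Among 21 G1 regulators 4 were called higher and 7 lower. The cyclin gene CCND3 was at 32.3 and 42.5 CPM in the shCtrl libraries and 70.9 and 75.2 CPM in the shMYCL libraries and rose (0.96 ± 0.13 SE, adjusted p = 8.43e-05), while CCND1 was at 17.1 and 14.9 CPM in the shCtrl libraries and 7.77 and 7.41 CPM in the shMYCL libraries and fell (-1.07 ± 0.17 SE, adjusted p = 0.000293), with 10.4% of its exonic bases shared with LTO1. CDK2 (0.72) and CCNE1 (0.63) rose. Of the CDK inhibitors, CDKN1A was higher (0.52 ± 0.10 SE, adjusted p = 0.00204), and CDKN1C (-0.80 ± 0.19 SE, adjusted p = 0.00681) and CDKN1B (-0.52 ± 0.10 SE, adjusted p = 0.00174) were lower. CDKN1A was not called without shCtrl replicate 1 (0.46) or shMYCL replicate 2 (0.49), CDKN1B without shMYCL replicate 1 (-0.46), and CCNE1 without shMYCL replicate 2 (0.44). CCNG2, an atypical cyclin that also stands in the hypoxia list, fell most (-1.32 ± 0.11 SE, adjusted p = 1.35e-06). The 4 higher genes became 2 without shMYCL replicate 2, and the 7 lower became 4 without shMYCL replicate 1. Replication-dependent histone genes, whose transcripts mostly lack a poly(A) tail, were low in these poly(A) libraries, with a summed level of 165 and 212 CPM in controls and 112 and 115 CPM after knockdown. Of 38 tested 13 were called lower and 1 higher, with a median of -1.02, and 8 were called lower without shCtrl replicate 2 and 7 by DESeq2. The linker histone H1-2 was at 23.2 and 32.8 CPM in the shCtrl libraries and 12.8 and 12.2 CPM in the shMYCL libraries (-1.17 ± 0.16 SE, adjusted p = 0.000119). H2AC18 had 136 and 181 counts in controls and 0 after knockdown, and its near-identical copy H2AC19 had 0 counts in controls and 52 and 50 after knockdown, so that the reads of this pair cannot be assigned to either gene with certainty.

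Nucleolar ribosome biogenesis genes were called higher in 10 of 71 (14.1%), with a median of 0.24. At an unadjusted p under 0.05 in edgeR 35 were higher and 2 lower, against 2793 and 2542 of 13737 protein-coding genes. NOP2, an rRNA methyltransferase, was at 18.1 and 20.1 CPM in the shCtrl libraries and 40.7 and 39.2 CPM in the shMYCL libraries (1.06 ± 0.13 SE, adjusted p = 2.97e-05), and UTP14A (0.56) and UTP4 (0.52) were higher too. UTP14A was not called without shCtrl replicate 2 or shMYCL replicate 2 (0.48 in each), nor UTP4 without shCtrl replicate 2 (0.48). The most abundant members NCL (0.21 ± 0.11 SE, adjusted p = 0.176) and NPM1 (0.16 ± 0.10 SE, adjusted p = 0.271) were not called. Of 83 cytoplasmic ribosomal protein genes 0 were called by edgeR or DESeq2. At an unadjusted p under 0.05 in edgeR 16 of them were higher, a share near that of protein-coding genes, and 1 was lower. Their median log2 fold change lay between 0.01 and 0.18 with 1 library left out. Splicing factors were called higher in 9 of 89 (10.1%) and mitochondrial ribosomal proteins in 4 of 77 (5.19%), shares near the 7.18% of all genes. In both lists 0 were called lower, against 8.99% of all genes. At an unadjusted p under 0.05 in edgeR 32 splicing factors were higher and 5 lower, and 10 mitochondrial ribosomal proteins were higher and 5 lower. Nuclear respiratory chain subunits were called lower in 2 of 76, and in 1 without shCtrl replicate 2 or shMYCL replicate 2. The 15 mitochondrially encoded genes had a median of 0.20, with 6 higher and 2 lower at an unadjusted p under 0.05 in edgeR. Among them the ribosomal RNA MT-RNR1 was called lower (-0.90 ± 0.14 SE, adjusted p = 0.000344), and the other ribosomal RNA MT-RNR2 was not called (-0.27). CACGTG was found in 23 of 59 matched promoters of the ribosome biogenesis list (39.0%, against 9.88% of all), in 8 of 63 of DNA replication genes (12.7%) and in 7 of 57 of mitosis genes (12.3%). The 250 bases before the start of UTP14A, which was called higher, and of CCNB1, which was called lower, are printed 5′ to 3′ on the plus strand, which is the strand of both, as examples of an E-box (in capitals) on genes that moved in opposite directions.
UTP14A, chrX:129905914-129906163: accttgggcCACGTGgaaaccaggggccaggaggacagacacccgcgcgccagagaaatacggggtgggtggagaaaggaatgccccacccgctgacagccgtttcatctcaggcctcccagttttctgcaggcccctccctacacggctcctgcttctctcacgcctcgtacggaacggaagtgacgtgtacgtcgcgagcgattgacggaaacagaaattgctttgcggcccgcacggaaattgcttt
CCNB1, chr5:69166900-69167149: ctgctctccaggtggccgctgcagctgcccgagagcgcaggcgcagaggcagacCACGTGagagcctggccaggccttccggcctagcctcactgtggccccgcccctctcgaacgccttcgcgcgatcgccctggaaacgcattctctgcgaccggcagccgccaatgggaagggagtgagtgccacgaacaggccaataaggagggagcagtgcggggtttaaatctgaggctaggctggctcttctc
The E-box begins at -241 in UTP14A and -196 in CCNB1, counted from the start of the gene.

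**Figure D4:**
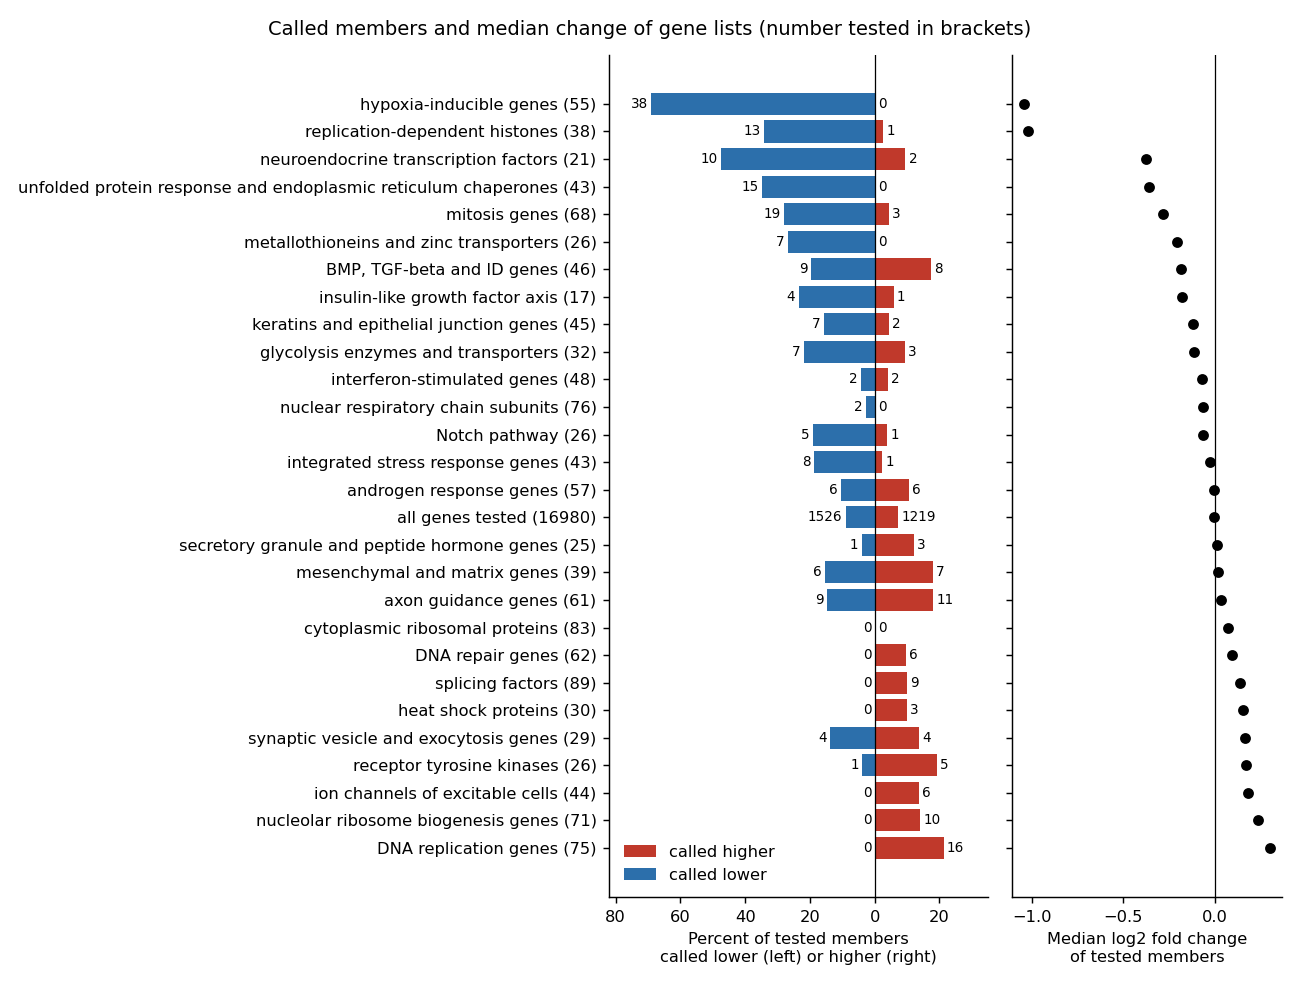
Percent of tested members of 27 gene lists and of all genes that were called lower (blue, left) or higher (red, right), with the number called at each bar, and the median log2 fold change of the list (right panel). Hypoxia-inducible genes stand at the top with 38 of 55 called lower, and DNA replication genes at the bottom with 16 of 75 called higher.

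Genes of microRNA processing and microRNA host transcripts were examined after their values were seen. The Microprocessor, made of DGCR8 and the nuclease DROSHA, cuts microRNA hairpins out of longer transcripts, and it also cuts a hairpin in the DGCR8 messenger. DGCR8 (chr22:20080221-20111877) was at 65.7 and 63.8 CPM in the shCtrl libraries and 141 and 149 CPM in the shMYCL libraries. It was 2.24-fold higher with little spread between replicates (1.16 ± 0.10 SE, adjusted p = 2.2e-06), and was among the 10 protein-coding genes with the smallest adjusted p of those called higher. DROSHA (0.14), DICER1 (0.18), XPO5 (0.11) and AGO2 (0.04) were not called. Of 37 tested host transcripts with symbols of the form MIR...HG 7 were called higher (18.9%, against 7.18% of all genes) and 3 lower (8.11%, against 8.99%), and with 1 library left out at a time 6 or 7 were called higher. MIR17HG (chr13:91347686-91397592), the host of the miR-17 to miR-92 cluster, was at 7.26 and 8.12 CPM in the shCtrl libraries and 25.6 and 22.9 CPM in the shMYCL libraries (1.65 ± 0.15 SE, adjusted p = 3.03e-06). MIR29B2CHG, host of miR-29 genes, was at 2.01 and 3.03 CPM in the shCtrl libraries and 12.1 and 8.30 CPM in the shMYCL libraries (2.01 ± 0.27 SE, adjusted p = 8e-05), and shares 8.27% of its exonic bases with CD46. Both were well above their controls in both libraries. MIR22HG had 7 and 10 counts in controls and 35 and 34 after knockdown (2.21 ± 0.49 SE, adjusted p = 0.00397), and MIR222HG had 1 and 5 counts and then 25 and 22. MIR9-3HG (0.97), MIRLET7A1HG (1.11) and MIR99AHG (1.51) were the other hosts called higher, the second of them not without shMYCL replicate 1 (0.91) and the last not without shCtrl replicate 2 (1.17) or shMYCL replicate 2 (1.34). The 3 lower hosts were MIR210HG, which low oxygen induces (-1.70 ± 0.31 SE, adjusted p = 0.00108), MIR646HG (-1.62) and MIR600HG (-0.53), the last of which was not called without shCtrl replicate 1 (-0.49) or either shMYCL replicate (-0.54 and -0.51). Mature microRNAs were not measured.

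Long noncoding RNAs, grouped by annotation after their values were seen, had more genes called lower than higher. Of 2388 tested 312 (13.1%) were called lower and 105 (4.4%) higher, with a median log2 fold change of -0.27, whereas 13737 protein-coding genes had 1131 lower (8.23%), 1077 higher (7.84%) and a median of 0.02. Between 0 and 1 on the log2 CPM scale the medians were -0.28 for 690 noncoding and 0.06 for 745 protein-coding genes, and at 5 and over they were -0.22 for 72 and 0.04 for 6555, so that the noncoding median was the lower in both ranges. The abundant nuclear transcript MALAT1 was at 883 and 1203 CPM in the shCtrl libraries and 1710.4 and 1270.3 CPM in the shMYCL libraries (0.52 ± 0.15 SE, adjusted p = 0.0198), shares 77.8% of its exonic bases with TALAM1, and was not called without shCtrl replicate 1 (0.32) or shMYCL replicate 1 (0.29). In the same list the snoRNA hosts SNHG1 (0.92 ± 0.11 SE, adjusted p = 2.89e-05), SNHG12 (1.33 ± 0.19 SE, adjusted p = 0.000161) and GAS5 (0.52 ± 0.11 SE, adjusted p = 0.00338) were higher, GAS5 not without shMYCL replicate 1 (0.41) or shCtrl replicate 1 (0.50). The 7 of 29 called higher in that list became 4 without shCtrl replicate 1 and 3 without shMYCL replicate 1. DESeq2 called 161 noncoding genes lower and 66 higher, and the lower count was 199 without shCtrl replicate 1, 195 without shMYCL replicate 1 and 202 without shMYCL replicate 2. The higher count was 64 without shMYCL replicate 1. The median stayed between -0.32 and -0.24 with 1 library left out. No source used here states whether counting used the strand, so reads of noncoding genes that overlap coding genes cannot be told apart from theirs.

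**Figure D5:**
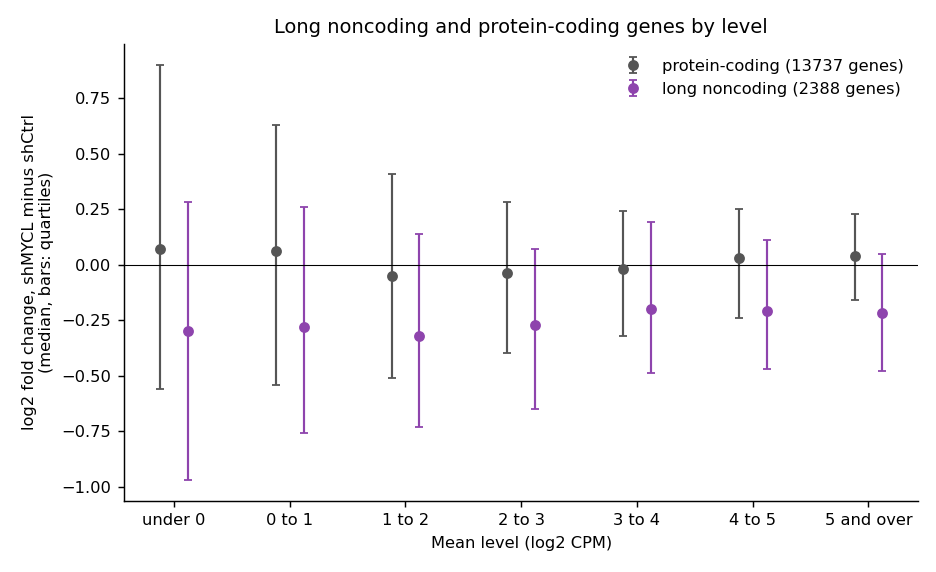
Median log2 fold change (shMYCL minus shCtrl, points) with quartiles (bars) of 13737 protein-coding (grey) and 2388 long noncoding genes (purple) in 7 ranges of mean level (log2 CPM). The noncoding median lies below the protein-coding median in every range.

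Epithelial and prostate genes changed in both directions. FKBP5, an androgen-induced chaperone, was at 136 and 136 CPM in the shCtrl libraries and 194 and 205 CPM in the shMYCL libraries (0.56 ± 0.10 SE, adjusted p = 0.00101). Of 57 androgen response genes 6 were called higher and 6 lower, with a median of -0.01. Of 14 luminal prostate factors tested 2 were called lower (14.3%, against 8.99% of all genes) and 2 higher (14.3%, against 7.18%), with a median of -0.03. The 2 lower were the epithelial factors ELF3 (-0.73 ± 0.12 SE, adjusted p = 0.000321) and EHF (-0.65 ± 0.11 SE, adjusted p = 0.000506). The abundant FOXA1 was not called (-0.20). Among 45 keratin and epithelial junction genes 7 were called lower (15.6%, against 8.99% of all genes) and 2 higher (4.44%, against 7.18%). With 1 library left out the median log2 fold change of this list lay between -0.17 and -0.08. The desmosome protein DSP was at 1244 and 1100.2 CPM in the shCtrl libraries and 676 and 588 CPM in the shMYCL libraries (-0.89 ± 0.11 SE, adjusted p = 5.11e-05), and the claudins CLDN3 (-0.81), CLDN4 (-0.68) and CLDN11 (-2.01) were lower as well. The 2 higher genes became 1 without shMYCL replicate 1. The keratin KRT8 (-0.03) and the adhesion molecules CDH1 (-0.23) and EPCAM (-0.18) were not called.

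Of 39 mesenchymal and matrix genes tested 7 were called higher and 6 lower. TNC, the matrix glycoprotein tenascin C, was at 51.3 and 54.5 CPM in the shCtrl libraries and 195 and 163 CPM in the shMYCL libraries, or 3.38-fold higher (1.76 ± 0.12 SE, adjusted p = 8.32e-08). The laminin genes LAMA1 (1.30), LAMB3 (0.90) and LAMA3 (0.73) rose too. SPARC, a collagen-binding protein, fell from 130 and 156 counts to 9 and 11 (-3.62 ± 0.32 SE, adjusted p = 1.77e-06), and the collagen crosslinker LOX (-1.31) and CCN2 (-1.58), a target of YAP, were lower, CCN2 not without shCtrl replicate 2 (-1.35). The collagenase MMP13 was at 9.15 and 13.9 CPM in the shCtrl libraries and 43.1 and 56.4 CPM in the shMYCL libraries (2.11 ± 0.18 SE, adjusted p = 1.2e-06), and SLPI, an inhibitor of serine proteases, was at 12.6 and 13.9 CPM in the shCtrl libraries and 52.5 and 38.8 CPM in the shMYCL libraries (1.78 ± 0.15 SE, adjusted p = 1.38e-06). Both shMYCL libraries lay above both controls for each. The chemokine receptors CXCR4 (-1.47 ± 0.12 SE, adjusted p = 6.23e-07) and ACKR3 (-1.77 ± 0.19 SE, adjusted p = 1.36e-05), which share the ligand CXCL12, both fell. The summed level of 12 fibroblast and muscle markers was 119.9 and 119 CPM in controls and 86.8 and 76.6 CPM after knockdown, with COL3A1, DCN, PDGFRB and THY1 at 0 in all 4 libraries. Of the 4 markers tested, COL1A2 was lower (-0.68) and TAGLN higher (1.22). TAGLN was not called without shMYCL replicate 1 (0.72), and 34.1% of its exonic bases are shared with PCSK7 on the other strand. Of 17 integrins 4 were called higher (23.5%, against 7.18% of all genes) and 1 lower (5.88%, against 8.99%). Among the higher, ITGB3 had 13 counts in controls and 57 after knockdown, and ITGB4 lay near the limit on the fold change (0.52). The abundant ITGB1 (-0.18) and ITGAV (0.19) were not called. The median log2 fold change of the integrins lay between 0.07 and 0.20 with 1 library left out.

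The ETS factor ETV4, which ERK activity induces, was at 18.5 and 23.4 CPM in the shCtrl libraries and 46.6 and 48.0 CPM in the shMYCL libraries (1.18 ± 0.13 SE, adjusted p = 2.06e-05), and ETV5 (1.11 ± 0.13 SE, adjusted p = 3.22e-05) and the feedback inhibitors SPRY4 (0.81 ± 0.13 SE, adjusted p = 0.000377) and DUSP6 (0.71 ± 0.10 SE, adjusted p = 0.000163) were higher. Of 26 receptor tyrosine kinases 5 were called higher (19.2%, against 7.18% of all genes) and 1 lower (3.85%, against 8.99%). With 1 library left out their median log2 fold change lay between 0.15 and 0.24. ALK (1.58 ± 0.17 SE, adjusted p = 1.07e-05), MET (0.70 ± 0.12 SE, adjusted p = 0.000745) and EGFR (0.60 ± 0.11 SE, adjusted p = 0.000804) were among the higher. The inhibitors of G protein signalling RGS2 and RGS4 rose, with RGS2 at 24.6 and 31.0 CPM in the shCtrl libraries and 74.5 and 72.0 CPM in the shMYCL libraries (1.40 ± 0.13 SE, adjusted p = 2.36e-06) and RGS4 at 9.09 and 6.60 CPM in the shCtrl libraries and 24.4 and 26.3 CPM in the shMYCL libraries (1.70 ± 0.17 SE, adjusted p = 4.82e-06). Of 51 NF-kB and immediate early genes 8 were called higher and 6 lower, 3 without shMYCL replicate 2, and the immediate early factor JUN was among the lower (-0.80 ± 0.10 SE, adjusted p = 6.88e-05). In the Wnt pathway 6 of 45 were called higher and 7 lower, with the nuclear effectors TCF7 (1.70 ± 0.17 SE, adjusted p = 7.5e-06) and LEF1 (0.89 ± 0.12 SE, adjusted p = 9.9e-05) and the feedback inhibitor NOTUM (1.41 ± 0.19 SE, adjusted p = 7.78e-05) up and the secreted proteins CCN4 (-2.84 ± 0.18 SE, adjusted p = 5.25e-08) and SFRP1 (-0.96 ± 0.14 SE, adjusted p = 0.0002) down.

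The inhibitors of differentiation ID1, at 83.0 and 82.5 CPM in the shCtrl libraries and 49.4 and 38.9 CPM in the shMYCL libraries (-0.91 ± 0.12 SE, adjusted p = 8.68e-05), and ID2, at 251 and 208 CPM in the shCtrl libraries and 123 and 113 CPM in the shMYCL libraries (-0.96 ± 0.11 SE, adjusted p = 3.18e-05), both fell, whereas ID3 was not called (-0.16). They belong to a list of 46 BMP, TGF-beta and ID genes with 9 lower and 8 higher. In the insulin-like growth factor axis 4 of 17 were lower and 1 higher. IGFBP5, a secreted binding protein, was at 1274 and 1328 CPM in the shCtrl libraries and 309 and 377 CPM in the shMYCL libraries and fell 3.79-fold (-1.92 ± 0.12 SE, adjusted p = 4.47e-08). IRS1, an adaptor of the receptor, fell (-1.29 ± 0.17 SE, adjusted p = 7.75e-05), and the RNA-binding protein gene IGF2BP2 rose (1.70 ± 0.21 SE, adjusted p = 3.8e-05). Metallothionein and zinc transporter genes were lower in 7 of 26, and the lower count was 4 without shCtrl replicate 1. Of 34 NRF2 target and iron genes 4 (11.8%, against 8.99% of all genes) were lower and 2 (5.88%, against 7.18%) higher. The higher ones were ABCC2, with 14 counts in controls and 45 after knockdown, and MAFG, near the limit on the fold change (0.51). With 1 library left out the median log2 fold change of this list lay between -0.07 and -0.01. TFRC, the transferrin receptor (-0.92 ± 0.10 SE, adjusted p = 1.55e-05), and FTL, the ferritin light chain (-0.85 ± 0.13 SE, adjusted p = 0.000194), were lower, and FTH1, the ferritin heavy chain, was not called (0.10). BCL2, the inhibitor of apoptosis, was at 316 and 254 CPM in the shCtrl libraries and 183 and 186 CPM in the shMYCL libraries (-0.62 ± 0.12 SE, adjusted p = 0.00118) and was not called without shCtrl replicate 1 (-0.45).

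Other programs held few calls. Interferon-stimulated genes had 2 higher and 2 lower of 48, proteasome subunits 1 and 1 of 49, lysosome and autophagy genes 2 and 6 of 79, cholesterol and fatty acid synthesis 2 and 2 of 40, and p53 targets 3 and 4 of 33. These shares lie close to or under the 7.18% and 8.99% of all genes for the interferon, proteasome, lysosome and cholesterol lists, and a little above them for p53 targets. The lysosome list had 10 lower without shCtrl replicate 1, the cholesterol list 6 higher without shMYCL replicate 1, and the interferon list 0 higher without shMYCL replicate 1 and 0 lower without shMYCL replicate 2. DNA repair genes were called higher in 6 of 62 (9.68%). Zinc finger genes with ZNF symbols, grouped after their values were seen, were called higher in 54 of 466 (11.6%) and lower in 10 (2.15%). Clustered protocadherins, neural adhesion genes that share exons, were called lower in 10 of 37, but lower in 4 without shCtrl replicate 1, 3 without shMYCL replicate 2 and 4 by DESeq2. The abundant glucose-responsive gene TXNIP was at 943 and 984 CPM in the shCtrl libraries and 879 and 965 CPM in the shMYCL libraries and was not called (-0.06).

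Some of the genes with the largest changes stand in no list. CLEC7A, a receptor for fungal glucans, was at 30.4 and 26.8 CPM in the shCtrl libraries and 4.48 and 5.24 CPM in the shMYCL libraries (-2.56 ± 0.16 SE, adjusted p = 6.63e-08). TSPAN8, an epithelial tetraspanin, was at 30.7 and 29.5 CPM in the shCtrl libraries and 6.38 and 6.13 CPM in the shMYCL libraries (-2.27 ± 0.15 SE, adjusted p = 7.75e-08). SLC34A2, a phosphate transporter of epithelia, was at 26.8 and 26.6 CPM in the shCtrl libraries and 6.65 and 6.07 CPM in the shMYCL libraries (-2.07 ± 0.15 SE, adjusted p = 2.31e-07). These 3 fell to a similar degree, with no overlap between groups. Upwards, RGL1, an exchange factor for the GTPase Ral, was at 3.95 and 3.46 CPM in the shCtrl libraries and 21.5 and 16.2 CPM in the shMYCL libraries (2.34 ± 0.20 SE, adjusted p = 1.2e-06), and GABBR2, a subunit of the metabotropic GABA receptor, was at 3.60 and 4.87 CPM in the shCtrl libraries and 16.5 and 14.6 CPM in the shMYCL libraries (1.87 ± 0.20 SE, adjusted p = 1.07e-05). Some of the extreme fold changes are uncertain for reasons of counting. ENSG00000272772 had 574 and 420 counts in controls and 0 after knockdown, at least 291-fold lower with 3 counts per group in place of 0, and 91.8% of its exonic bases are shared with SKP1. NBPF19 shares 95.8% of its exonic bases with another gene model, and PLCXD1 and AKAP17A have copies on both sex chromosomes. In all, 25 called genes had 0 counts in 1 group, 13 of them in shMYCL and 12 in shCtrl.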

How the data were processed

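Estimated counts per gene and TPM were deposited for all libraries, and per the submitters' processing notes the genome build was hg38. The aligner and counter are not given in the sources used here, and the methods state that the authors scaled counts by gene length to obtain TPM. Estimated counts were rounded to whole numbers. The 4 NCI-H660 libraries (15177058 to 18362946 counts) were fitted alone in edgeR 4.0.16 (R 4.3.3) with filterByExpr, TMM factors and quasi-likelihood F tests, and the Benjamini-Hochberg method was applied over 16980 genes. CPM of single genes and summed CPM of gene lists are scaled by TMM library sizes. The summed CPM of the cell type marker sets are scaled by the total counts of each library instead. Errors of fold changes are the absolute log2 fold change over the root of F, and the biological coefficient of variation was 0.0965. The labels of these libraries do not say whether replicates were separate cultures, so p-values measure the spread between these libraries, which may be technical.

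The 52 gene lists and the genes were chosen with earlier results of these data known. Genes were named if they were MYC family genes or genes of interest to the study, were among the 15 highest or lowest fold changes of called genes above a log2 CPM of 3 without overlap between groups and with a log2 fold change of 1 or more in size, were among the 6 most changed called or 3 most abundant members of a list, or had the 10 smallest adjusted p in a direction. The other genes were named after their values were seen, among them the microRNA hosts, the Microprocessor genes other than DGCR8, HSPA5, LDHA, PLK1, CXCR4 and ID1. Alternatives were DESeq2 1.42.0, other size factors and filters, all 8 libraries in 1 fit, thinned counts, a replicate block, log2(TPM + 1) and log2(TPM + 0.1) in limma 3.58.1, and leaving out each library. Coordinates and exon overlaps came from GENCODE 44. Some genes of the lists are counted but not reported here by name.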

Additional observations from a re-analysis of the deposited data

How the results depend on the processing

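MYCL kept its direction and its call in all alternatives except log2(TPM + 1) without a filter on low TPM, where its log2 fold change was -2.90 and 1 gene in all was called (0% higher). Other settings gave 1702 called genes with log2(TPM + 1) and 1600 with log2(TPM + 0.1) (46.3% higher), 2060 with DESeq2 (47.7% higher), 2643 with at least 10 counts in every library (41.6% higher), 4204 with no minimum on the fold change (48.5% higher) and 1022 with a log2 fold change of 1 or more in size (39.9% higher), against 2745 (44.4% higher). Leaving out each library gave 2292 to 3035 called genes and 45.7% to 50.0% higher. The cause of these shifts was not tested. With a replicate block 2949 genes were called, of which 2730 were shared with the fit without it. Over all genes the deviations of same-numbered libraries had a correlation of 0.0457. The labels do not say whether same-numbered libraries were paired, and whether they share a culture or a day was not tested.

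With log2(TPM + 1), 0 of the neuroendocrine transcription factors were called higher and 7 lower, and the hypoxia-inducible list had 34 lower. On that scale CCN2, GAS5, LAMA3, LHX2, LOX, MALAT1, MIR600HG, MIR99AHG, MIRLET7A1HG, PROX1 and TAGLN were among the genes no longer called. There were 2 libraries in each group, and the depth limits the precision of genes with few counts.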
